A study of Mus musculus with 9 samples.

Results

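The genes described here are 43 mouse genes of lysosomes and autophagy, out of 19937 genes with a probe set of their own on the arrays. They were chosen by name from a list of lysosomal membrane proteins, hydrolases, proton pump subunits and autophagy factors, and each was read from its brightest probe set that the platform annotation ties to a single gene symbol. All 43 had such a probe set, and 42 passed a filter that kept genes with a mean log2 value of at least 7.24, the 40th percentile of genes. The exception was Ctss. The cells were mouse embryonic fibroblasts of 3 genotypes of p27, the cyclin-dependent kinase inhibitor encoded by Cdkn1b: wild type (WT), p27CK (CK) and p27KO (KO), with 3 arrays each. All 3 genotypes were grown with 10% serum and then held for 72 h without serum, a treatment that sends fibroblasts into quiescence. In published work p27CK is a p27 protein that cannot bind cyclins or their kinases, whereas the labels give only its name. The extraction protocol speaks of wild-type or delta51 mice and leaves open which cells delta51 refers to. Ages, strains and the number of embryos or cultures behind each genotype are not given in the sources used here. The p-values therefore measure the spread between arrays, which may be technical, and genotype and culture cannot be told apart.

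Lysosomes are acidic organelles in which hydrolases break down proteins, glycans and lipids, and autophagy delivers the cell's own cytoplasm to them inside double-membraned vesicles. The pathway is active in cells starved of serum or amino acids. The transcription factor TFEB and its relatives switch on many lysosomal genes by binding a short palindromic E-box, called the CLEAR element, in their promoters. In published work, p27 in amino acid-starved fibroblasts reaches the lysosome and binds LAMTOR1, part of the complex that recruits the growth kinase mTORC1, and p27 loss alters both autophagy and TFEB. The comparisons ask how the transcripts of this pathway differ between quiescent cells with wild-type p27, with p27CK and without p27.

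The promoters of 14 genes held the E-box that forms the centre of the CLEAR element. RefSeq promoter windows of build GRCm38.p6 were found for 36 of the 43 genes, and the 250 bases before the annotated transcription start were searched for the E-box CACGTG, which reads the same on both strands. It was present before 14 of the 36 genes, or 38.9%, against 9.99% of 9564 tested genes and 6.86% of all 27025 genes with a window. The longer core TCACGTGA lay before 6 of the 36 genes (16.7%, against 1.80% of the tested genes), and the full CLEAR palindrome, which adds a base at each end, before 1, Cln3 (2.78%, against 0.586%). The longer matches contain the shorter ones and are counted in both. The sequences below run 5′ to 3′ on the gene's strand, and capitals mark each CACGTG. The first 4 belong to genes with 2 or more copies, from Lamp1, whose transcript differed little, to Cln3 and Gla, whose transcripts moved most among genes with the motif. The last 2, Cd68 and Ctsk, hold no copy in this window and had the largest differences between KO and WT.
Lamp1, chr8:13158911-13159160, plus strand: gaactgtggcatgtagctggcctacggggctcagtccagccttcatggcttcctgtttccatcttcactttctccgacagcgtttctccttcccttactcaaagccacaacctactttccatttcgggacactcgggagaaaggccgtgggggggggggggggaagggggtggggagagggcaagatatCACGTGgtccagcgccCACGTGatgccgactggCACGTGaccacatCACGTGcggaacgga
Ctsd, chr7:142387828-142388077, minus strand: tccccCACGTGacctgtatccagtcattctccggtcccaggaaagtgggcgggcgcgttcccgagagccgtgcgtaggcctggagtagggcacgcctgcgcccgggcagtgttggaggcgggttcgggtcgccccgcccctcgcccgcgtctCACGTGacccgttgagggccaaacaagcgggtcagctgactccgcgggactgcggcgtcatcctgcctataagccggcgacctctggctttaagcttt
Gla, chrX:134601006-134601255, minus strand: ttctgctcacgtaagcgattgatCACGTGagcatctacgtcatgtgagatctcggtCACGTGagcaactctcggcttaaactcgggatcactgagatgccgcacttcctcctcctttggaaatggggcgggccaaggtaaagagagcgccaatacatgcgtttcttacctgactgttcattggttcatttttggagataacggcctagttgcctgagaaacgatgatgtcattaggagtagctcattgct
Cln3, chr7:126583237-126583486, minus strand: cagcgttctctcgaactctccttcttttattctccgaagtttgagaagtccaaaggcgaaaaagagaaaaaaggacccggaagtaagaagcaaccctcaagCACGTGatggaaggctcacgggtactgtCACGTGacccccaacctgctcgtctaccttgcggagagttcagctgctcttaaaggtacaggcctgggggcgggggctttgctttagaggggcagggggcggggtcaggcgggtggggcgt
Cd68, chr11:69666171-69666420, minus strand: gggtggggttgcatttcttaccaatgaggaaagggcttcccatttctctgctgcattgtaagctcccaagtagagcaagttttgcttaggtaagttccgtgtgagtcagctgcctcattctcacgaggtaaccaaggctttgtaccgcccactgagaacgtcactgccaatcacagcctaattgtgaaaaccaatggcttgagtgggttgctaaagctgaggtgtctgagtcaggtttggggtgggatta
Ctsk, chr3:95498960-95499209, plus strand: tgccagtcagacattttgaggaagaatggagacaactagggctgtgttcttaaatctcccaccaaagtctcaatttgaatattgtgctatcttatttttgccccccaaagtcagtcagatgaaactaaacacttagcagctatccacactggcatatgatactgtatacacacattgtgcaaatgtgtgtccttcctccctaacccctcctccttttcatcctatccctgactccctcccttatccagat

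The map of these matches shows where they sit. Lamp1 had 4 copies between 61 and 15 bases before its start, the densest run among the 14 genes. The CACGTG inside the palindrome of Cln3 began 121 bases before the start of 1 of its 2 annotated windows, next to a further copy at 149. Gla had both of its copies inside the longer core, with CACGTG beginning 227 and 194 bases before the start. A match is a string of letters and not a measured binding site, and a promoter without it may hold one elsewhere.

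**Figure D1:**
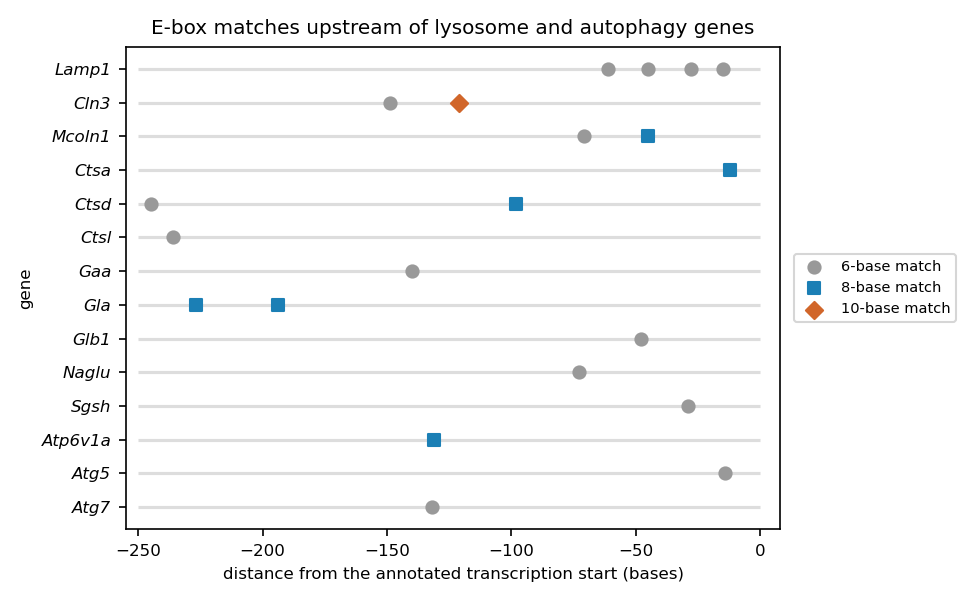
Position of each CACGTG match (x axis, bases before the annotated transcription start) in the 250-base windows of the 14 genes that hold one (y axis). Grey circles are matches of 6 bases, blue squares the core of 8 bases and the orange diamond the palindrome of 10 bases; Lamp1 has 4 copies and Cln3 the only palindrome.

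As background to every count below, Cdkn1b read between 11.42 and 11.50 on the WT arrays, 10.99 to 11.16 on the CK arrays and 7.25 to 7.45 on the KO arrays, so the KO label held on this probe set. Median array levels lay between 7.29 and 7.40 and correlations between arrays of a genotype between 0.995 and 0.998. Fibroblast markers averaged 12.07 to 12.18 on the WT arrays, 11.97 to 12.07 on the CK arrays and 11.30 to 11.33 on the KO arrays, and 14 cartilage markers averaged 8.41 to 8.64, 7.76 to 7.79 and 10.05 to 10.39. KO cultures thus read lower than WT on the former and higher on the latter. CK cultures read lower than WT on the latter, with the largest fall in Cnmd (log2 difference -6.03). Of 13 tested cartilage markers, 6 were lower and 0 higher in CK than in WT (46.2% and 0%, beside 32.1% and 30.7% of all genes). The part of these shifts in the results below was not tested. In RNA from whole cultures, fewer cells of a type and less RNA per cell cannot be told apart.

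The differences of at least 2-fold lay in 6 genes, and most others were small, as they were over the whole array. Between KO and WT, 36 of the 42 tested genes differed by less than 1.5-fold (85.7%, against 81.9% of all genes tested). The count was 34 between CK and WT (81.0%, against 74.7%) and 32 between CK and KO (76.2%, against 74.3%). Of all 11962 genes tested, 51.2% were called between KO and WT (26.6% higher and 24.6% lower), 62.9% between CK and WT (30.7% and 32.1%) and 62.2% between CK and KO (29.5% and 32.7%), and every count of called genes below is to be read against these shares. The genes that passed the test (limma adjusted p under 0.05) with at least a 2-fold difference in some comparison were Cd68, Cln3, Ctsh, Ctsk, Lipa and Gla. The heat map of all 43 genes shows these 6 against a pale field.

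**Figure D2:**
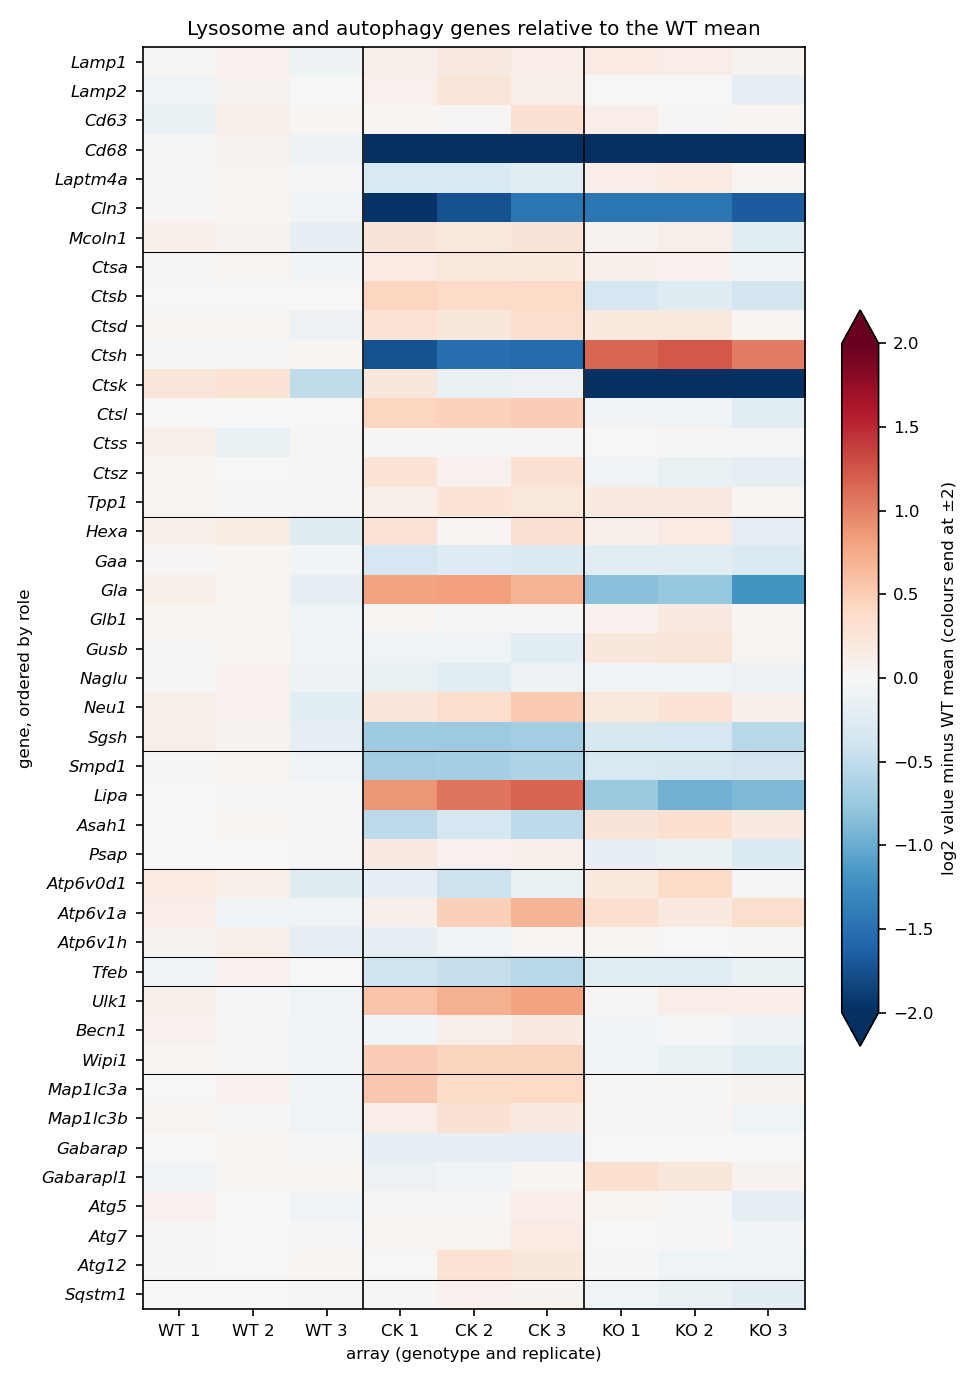
Log2 value of each gene on each of the 9 arrays minus its mean over the 3 WT arrays, with genes in rows ordered by role and arrays in columns. Red is higher and blue lower than WT, and colours end at a difference of 2; Cd68 and Cln3 are blue in both mutants, Ctsk in KO alone, and Ctsh, Lipa and Gla have opposite colours in CK and KO.

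The membrane proteins of the lysosome differed by small amounts, apart from Cd68 and Cln3. Of 7, 1 rose and 3 fell in CK against WT (14.3% and 42.9%, beside 30.7% and 32.1% of all genes). In KO 0 rose and 2 fell (0% and 28.6%, beside 26.6% and 24.6%). Between CK and KO 3 were higher and 1 lower (42.9% and 14.3%, beside 29.5% and 32.7%). Lamp1, the most abundant glycoprotein of the lysosomal membrane in many cells, read 12.93, 12.99 and 12.80 in WT, 13.01, 13.08 and 13.03 in CK, and 13.07, 13.04 and 12.97 in KO. Its arrays overlapped between WT and KO, and the 95% interval of the KO difference ran from -0.01 to 0.25 (limma adjusted p = 0.123). Between CK and WT the Lamp1 difference was 0.13 and missed the threshold (adjusted p = 0.0754). It passed with each array centred on its median (0.0306) and without WT replicate 2 (0.0433). Neither Lamp2, which shields the membrane and takes part in chaperone-mediated autophagy, nor the tetraspanin Cd63 passed the test against WT in either mutant, although Lamp2 in CK did with a trended robust variance (adjusted p = 0.0464). Lamp2 was higher in CK than in KO by 0.20 (adjusted p = 0.0239), a call lost without CK replicate 2 (0.0876) or KO replicate 3 (0.0886).

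Cd68, a heavily glycosylated relative of the LAMP proteins best known from macrophages, fell deeply in both mutants. It read 10.67, 10.72 and 10.54 in WT, 8.58, 8.58 and 8.62 in CK, and 7.88, 7.83 and 8.24 in KO. Every WT array lay above every CK array, and every CK array above every KO array. The fall was 4.14-fold in CK (log2 difference -2.05, SE 0.10, limma adjusted p = 3.14e-08) and 6.32-fold in KO (log2 difference -2.66, SE 0.10, adjusted p = 4.73e-09), and CK stood above KO by 0.61 (adjusted p = 0.000278). Of 18 other macrophage markers only Lyz2 passed the filter, and the mean log2 level of the list was 6.46 to 6.56 on all 9 arrays. Csf1r, Adgre1 and Ptprc, which define macrophages and leukocytes, read between 5.75 and 6.22 in every genotype mean. Lyz2 had mean log2 levels of 6.90 with WT p27, 7.59 with p27CK and 8.83 without p27, an order opposite to that of Cd68, and its WT arrays lay below the filter level and may be background. Of the markers below the filter, Cd14 read 7.87 in WT and 6.69 and 6.66 in CK and KO, lower in both mutants as Cd68 was. Cd53 read 8.04 in CK and 5.92 and 5.88 in WT and KO. Neither was tested, and values below 7.24 may be background.

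Cln3, a multi-spanning lysosomal membrane protein whose loss causes juvenile Batten disease, fell in both mutants to a like level. WT arrays read 10.65, 10.66 and 10.57, CK arrays 8.67, 8.89 and 9.16, and KO arrays 9.17, 9.17 and 8.96. No mutant array came within 1 log2 unit of a WT array, while CK and KO overlapped. The fall was 3.29-fold in CK (log2 difference -1.72, SE 0.11, limma adjusted p = 2.70e-07) and 2.88-fold in KO (log2 difference -1.53, SE 0.11, adjusted p = 8.34e-07). The difference between CK and KO was -0.19, with a 95% interval from -0.43 to 0.05 (adjusted p = 0.156). Without CK replicate 3 it passed the threshold (adjusted p = 0.0123). Cln3 was the gene with the full CLEAR palindrome in its promoter.

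Other membrane proteins moved little. Laptm4a, a small transporter-like protein of late endosomes, read 13.37, 13.44 and 13.36 in WT, 13.08, 13.08 and 13.17 in CK, and 13.52, 13.55 and 13.43 in KO. It fell in CK by 0.28 against WT and by 0.39 against KO (limma adjusted p = 0.000113), all CK arrays lying below the others. Mcoln1, the calcium channel through which lysosomes activate TFEB, rose in CK by 0.24 against WT (adjusted p = 0.0457). This call was lost without WT replicate 2 or 3, without any 1 CK array or without KO replicate 1 (adjusted p from 0.0534 to 0.169).

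Among the peptidases, Ctsh and Ctsk changed most and the major cathepsins changed by small steps. Ctsh, an aminopeptidase of the papain family, read 10.08, 10.08 and 10.14 in WT, 8.36, 8.60 and 8.55 in CK, and 11.25, 11.32 and 11.14 in KO. The 3 genotypes did not overlap, and the mutants moved in opposite directions. It fell 3.03-fold in CK (log2 difference -1.60, SE 0.07, limma adjusted p = 2.11e-08), rose 2.20-fold in KO (difference 1.14, adjusted p = 3.23e-07) and differed 6.65-fold between CK and KO (log2 difference -2.73, adjusted p = 3.62e-10).

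Ctsk, the collagen-cleaving cathepsin of osteoclasts that fibroblasts also make, was low in KO alone. It read 10.12, 10.15 and 9.37 in WT, 10.10, 9.75 and 9.77 in CK, and 6.86, 6.92 and 7.10 in KO. All KO arrays lay below the filter level of 7.24 and are not shown to be above background, so the 7.55-fold difference from WT is one of measured values (log2 difference -2.92, SE 0.19, limma adjusted p = 3.65e-07). Ctsk in CK differed from WT by -0.01, with a 95% interval from -0.42 to 0.41. WT replicate 3 read lower than the other WT arrays, and the KO fall was called without it as well. The osteoclast markers Calcr, Dcstamp, Ocstamp and Oscar did not pass the filter, and the mean level of 9 such markers was 7.41 to 7.51 on WT arrays, 7.40 to 7.55 on CK arrays and 7.07 to 7.10 on KO arrays. Of the 4 that passed, 3 fell in KO as Ctsk did, namely the gelatinase gene Mmp9 (log2 difference -3.36), Acp5 (-0.53) and Atp6v0d2 (-0.56), and Nfatc1 rose by 1.34. Atp6v0d2 read 6.73 to 6.90 on the KO arrays, below the filter level, and passed the filter only because of its CK arrays (mean 7.98). Its KO values may be background. The part of these 4 markers in the Ctsk result was not tested. Ctss, the cathepsin of antigen-presenting cells and the chromosomal neighbour of Ctsk, read between 6.02 and 6.25 on all 9 arrays, below the filter, and was not tested.

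**Figure D3:**
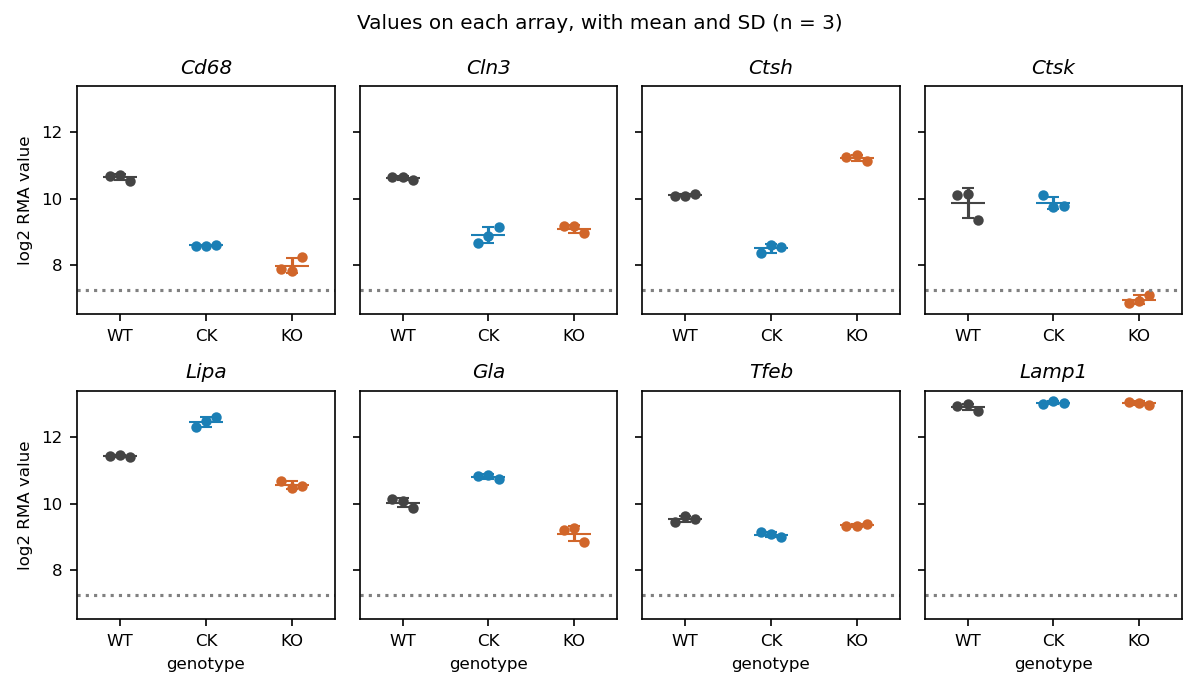
Log2 RMA value (y axis) of 8 genes on each array by genotype (x axis), with points for arrays, a bar for the mean and error bars for the SD of 3 arrays. The dotted line is the filter level of 7.24; Cd68 and Cln3 are low in both mutants, Ctsk is under the line in KO, Lipa and Gla are highest in CK and lowest in KO, and Lamp1 lies between 12.80 and 13.08 throughout.

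Ctsl, Ctsb and Ctsd rose in CK against WT. Ctsl, an endopeptidase that matures other lysosomal enzymes, read 13.07, 13.07 and 13.05 in WT, 13.49, 13.53 and 13.55 in CK, and 12.99, 12.97 and 12.85 in KO. CK stood above WT by 0.46 (SE 0.05, limma adjusted p = 2.45e-05) and above KO by 0.59. Ctsb, which cleaves both as an endopeptidase and from the carboxyl end, read 12.98, 12.99 and 12.98 in WT, 13.42, 13.36 and 13.37 in CK, and 12.63, 12.74 and 12.61 in KO. The 3 genotypes were again apart, with a rise of 0.40 in CK and a fall of 0.32 in KO, which put CK 1.65-fold above KO (adjusted p = 6.07e-07). Ctsd, the main aspartic protease of the lysosome, read 12.91, 12.91 and 12.73 in WT, 13.14, 13.08 and 13.20 in CK, and 13.05, 13.06 and 12.90 in KO. It rose by 0.29 in CK (adjusted p = 0.00402), and its KO difference of 0.15 missed the threshold (adjusted p = 0.0919). With each array centred on its median the KO difference passed (adjusted p = 0.0351), as it did without KO replicate 3 (0.0360).

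Ctsz, Ctsa and Tpp1 also rose in CK against WT, by 0.22, 0.19 and 0.19. The Ctsa call was lost without WT replicate 3 (limma adjusted p = 0.0513), and that of Tpp1 without WT replicate 2 or 3 or CK replicate 2 or 3 (adjusted p from 0.0593 to 0.0807). In all, 6 of 8 tested peptidases rose and 1 fell in CK against WT (75% and 12.5%, beside 30.7% and 32.1% of all genes). In KO 1 rose and 2 fell (12.5% and 25%, beside 26.6% and 24.6%).

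The glycosidases divided by gene rather than moving together. Gla, the alpha-galactosidase missing in Fabry disease, read 10.14, 10.08 and 9.87 in WT, 10.84, 10.85 and 10.73 in CK, and 9.19, 9.27 and 8.84 in KO. It rose 1.72-fold in CK (log2 difference 0.78, SE 0.11, limma adjusted p = 0.000104) and fell in KO (difference -0.93, adjusted p = 4.09e-05), so that CK was 3.27-fold above KO. Sgsh, the sulfamidase of heparan sulfate breakdown, read 10.72, 10.67 and 10.42 in WT, 9.89, 9.88 and 9.91 in CK, and 10.28, 10.27 and 10.04 in KO. It fell in CK (log2 difference -0.71, adjusted p = 4.20e-05) and less far in KO (difference -0.40, adjusted p = 0.00294), and CK lay below KO by 0.31 (adjusted p = 0.0109).

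Gaa, the acid alpha-glucosidase of Pompe disease, fell in both mutants, with log2 differences of -0.28 in CK and -0.24 in KO. Neu1, a sialidase, rose by 0.38 in CK. Naglu, which acts in the same heparan sulfate pathway as Sgsh, fell in CK with a difference of -0.16 (limma adjusted p = 0.0362). That call was lost without WT replicate 1 or 2, CK replicate 1 or 2 or KO replicate 1 or 2 (adjusted p from 0.0509 to 0.139), and with the replicate number as a block (0.0617). Hexa and Glb1, whose products clear gangliosides, did not pass the test in any comparison. Gusb was lower in CK than in KO (log2 difference -0.30, limma adjusted p = 0.00299). Against WT it missed the threshold in KO with a difference of 0.18 (adjusted p = 0.0501). It passed there with the replicate number as a block (0.0224), with arrays centred (0.0365), and without CK replicate 3 (0.0413) or KO replicate 3 (0.0135). Of 8 genes of this class, 2 rose and 3 fell in CK against WT (25% and 37.5%, beside 30.7% and 32.1% of all genes), and 3 fell in KO (37.5%, beside 24.6%).

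All 4 lipid-handling genes differed between CK and KO, as did 62.2% of all genes tested. Lipa, the acid lipase that frees cholesterol and fatty acids inside lysosomes, read 11.43, 11.45 and 11.39 in WT, 12.31, 12.49 and 12.59 in CK, and 10.68, 10.46 and 10.52 in KO. The genotypes were well apart, with a 2.05-fold rise in CK (log2 difference 1.04, SE 0.08, limma adjusted p = 1.34e-06), a 1.83-fold fall in KO (difference -0.87, adjusted p = 7.06e-06) and a 3.76-fold gap between CK and KO (adjusted p = 1.05e-08).

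Smpd1, the acid sphingomyelinase, read 12.51, 12.53 and 12.40 in WT, 11.78, 11.82 and 11.86 in CK, and 12.17, 12.16 and 12.11 in KO. Smpd1 was highest in WT and lowest in CK without overlap, falling in CK (log2 difference -0.66, limma adjusted p = 1.74e-06) and in KO (log2 difference -0.33, adjusted p = 0.000402). Asah1, the acid ceramidase that acts on the product of Smpd1, read 12.57, 12.61 and 12.54 in WT, 12.05, 12.23 and 12.06 in CK, and 12.84, 12.89 and 12.75 in KO. It fell in CK by 0.46 and rose in KO by 0.25, a difference of -0.72 between CK and KO (adjusted p = 3.39e-06). Psap, the precursor of the saposins that assist sphingolipid hydrolases, fell in KO (log2 difference -0.19, adjusted p = 0.0113) and was higher in CK than in KO by 0.32.

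The 3 proton pump subunits, which acidify the lysosome, gave small and scattered differences. Atp6v0d1, part of the membrane sector, read 11.66, 11.60 and 11.26 in WT, 11.34, 11.07 and 11.35 in CK, and 11.70, 11.87 and 11.48 in KO. CK was below KO by 0.43 (limma adjusted p = 0.0137), a call lost without CK replicate 2 (0.0589) or KO replicate 2 (0.0569). Atp6v1a, the catalytic subunit, rose in CK by 0.42 (adjusted p = 0.0133), although 1 CK array lay among the WT arrays. Its KO difference of 0.29 missed the threshold (adjusted p = 0.0831) and passed without CK replicate 1 (0.0157) or CK replicate 3 (0.0406). Atp6v1h did not pass in any comparison.

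Tfeb, whose product switches on many lysosomal genes, fell in both mutants and most in CK. It read 9.45, 9.62 and 9.53 in WT, 9.13, 9.08 and 8.98 in CK, and 9.33, 9.33 and 9.40 in KO. The 3 genotypes did not overlap, although the KO arrays lay close under the lowest WT array. The difference was -0.47 in CK (SE 0.06, limma adjusted p = 8.05e-05) and -0.18 in KO (adjusted p = 0.0342), and CK lay below KO by 0.29 (adjusted p = 0.00234). The KO call was lost without WT replicate 2 or 3 or KO replicate 1 or 2 (adjusted p from 0.0658 to 0.128), with arrays centred (0.0671) or quantile normalized again (0.0920), and with the replicate number as a block (0.0583). These are transcript levels, and TFEB activity, which depends on where the protein is, was not measured.

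Of the 3 genes that start autophagy, Ulk1 and Wipi1 rose in CK and Becn1 did not pass the test. Ulk1, the kinase that mTORC1 holds in check, read 10.36, 10.21 and 10.16 in WT, 10.81, 10.95 and 11.04 in CK, and 10.27, 10.38 and 10.38 in KO. CK stood above WT by 0.69 (SE 0.07, limma adjusted p = 1.48e-05) and above KO by 0.59 (adjusted p = 4.73e-05), while KO and WT overlapped. Wipi1, which binds the lipid mark of forming autophagosomes, read 10.43, 10.41 and 10.33 in WT, 10.88, 10.83 and 10.84 in CK, and 10.32, 10.25 and 10.17 in KO. It rose by 0.46 in CK (adjusted p = 3.46e-05), and its KO difference of -0.14 missed the threshold (adjusted p = 0.0562). That KO difference passed without WT replicate 3 (0.0452) or KO replicate 1 (0.0405). Becn1, the scaffold of the lipid kinase complex, did not pass in any comparison, though it did between CK and KO without CK replicate 1 (0.0156).

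The ATG8 proteins, which are joined to the autophagosome membrane and hold cargo receptors there, did not all move alike in CK. Map1lc3b read 12.62, 12.58 and 12.50 in WT, 12.69, 12.86 and 12.74 in CK, and 12.59, 12.59 and 12.48 in KO. All CK arrays lay above the others, by 0.20 against WT (limma adjusted p = 0.0165). The call was lost without WT replicate 3 (0.0589) or CK replicate 2 (0.0606). A second, dimmer probe set with the same symbol read 10.50 to 10.74 in WT, 11.04 to 11.30 in CK and 10.52 to 10.79 in KO, with CK again above the rest. Map1lc3a rose in CK by 0.43 (adjusted p = 0.000157), whereas Gabarap fell in CK by 0.18 against WT (adjusted p = 0.00575) and by 0.17 against KO. Its relative Gabarapl2, looked up after the values were seen, rose by 0.39 in CK (adjusted p = 0.000367) and by 0.50 in KO.

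Gabarapl1 read 12.69, 12.80 and 12.80 in WT, 12.65, 12.72 and 12.80 in CK, and 13.10, 13.00 and 12.84 in KO. KO was above WT by 0.21 (limma adjusted p = 0.0331), a call lost without WT replicate 1 or 2 or KO replicate 1 or 2 (adjusted p from 0.0542 to 0.138) and with the replicate number as a block (0.0581). The conjugation genes Atg5 and Atg7 did not pass in any comparison, although Atg7 in CK against WT did after repeated quantile normalization (adjusted p = 0.0432). Atg12 was higher in CK than in KO by 0.24 (adjusted p = 0.0165), not so without CK replicate 2 (0.0642) or CK replicate 3 (0.0540). Against WT its CK difference of 0.17 passed without CK replicate 1 (0.00284).

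Sqstm1, the cargo receptor p62 that is itself consumed by autophagy, read 13.27, 13.26 and 13.24 in WT, 13.28, 13.34 and 13.32 in CK, and 13.17, 13.12 and 13.03 in KO. Sqstm1 was lower in KO than in WT by 0.15 (limma adjusted p = 0.0370) and lower than in CK by 0.20 (adjusted p = 0.00616). The call against WT was lost without any 1 WT array or without KO replicate 2 or 3 (adjusted p from 0.0604 to 0.126), with arrays centred (0.0501) or quantile normalized again (0.0629), and with the replicate number as a block (0.0625).

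Counted over the whole set, KO against WT called 3 genes higher and 12 lower of 42 tested, with a median log2 difference of -0.01. That is 7.14% higher, where 26.6% of all genes tested were higher, and 28.6% lower, where the share over all genes was 24.6%. Called genes of both directions made up 35.7%, against 51.2% of all genes. With each array centred on its median the counts were 5 higher and 10 lower. The count of higher genes was 5 without CK replicate 3 and 6 without KO replicate 3.

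CK against WT called 15 genes higher and 11 lower, with a median of 0.10. The shares of 35.7% and 26.2% stand beside 30.7% and 32.1% over all genes, and the 61.9% called in all beside 62.9%. CK against KO called 16 higher and 10 lower, 61.9% in all against 62.2%, with 38.1% higher beside 29.5% and 23.8% lower beside 32.7%, and a median of 0.14. Arrays of the pair compared did not overlap for 21 of the 42 genes between KO and WT (60.9% of all genes), 30 between CK and WT (67.3%) and 31 between CK and KO (67.5%). The medians over all genes were 0.01, -0.01 and -0.02 in the 3 comparisons. Both mutants are compared with the same 3 WT arrays, and their values are given side by side only. These shares describe the list and do not by themselves set it apart. Of 42 genes, 4 in each comparison were called with at least a 2-fold difference, beside 8.77%, 10.8% and 12.4% of all genes.

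**Figure D4:**
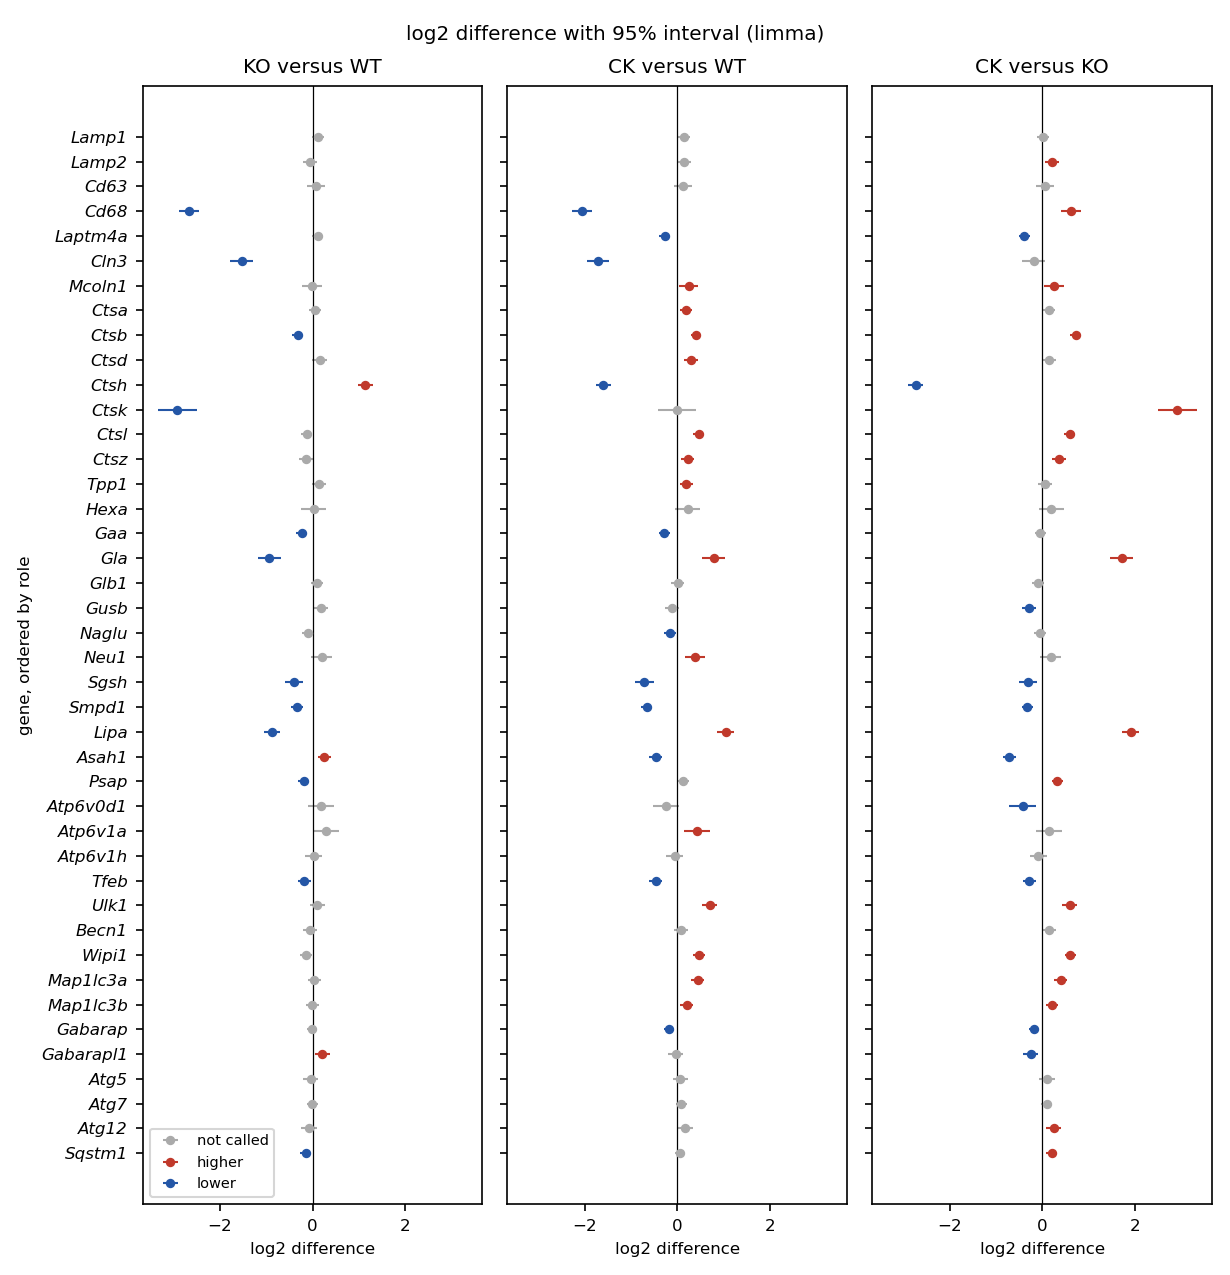
Log2 difference with its 95% interval (x axis) for the 42 tested genes (y axis, ordered by role) in the 3 comparisons. Red and blue points passed the limma test as higher or lower in the first-named genotype and grey points did not; KO against WT holds 3 red and 12 blue points, CK against WT 15 and 11, and CK against KO 16 and 10.

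The order of the genotypes was then read from the arrays. All 3 CK arrays lay above the other 6 for 16 of 42 genes (38.1%, against 22.1% of all genes), and all 3 KO arrays lay below the other 6 for 11 genes (26.2%, against 15%). Both held for 8 genes (19.0%, against 6.48%): Ctsb, Ctsl, Ctsz, Gla, Lipa, Psap, Wipi1 and Sqstm1. Of these, only Ctsb, Gla and Lipa passed the limma test in all 3 comparisons. KO against WT did not pass for Ctsl, Ctsz and Wipi1, and CK against WT did not pass for Psap and Sqstm1. The reverse order, KO highest and CK lowest, held for Ctsh and Asah1 (4.76%, against 7.35%). WT was apart as the highest for 6 genes (14.3%, against 16.5%), namely Cd68, Cln3, Gaa, Sgsh, Smpd1 and Tfeb, and as the lowest for 0 (against 16.1%). CK lay below the other 6 arrays for 8 genes (19.0%, against 23.6%) and KO above them for 4 (9.52%, against 17.7%). In 11 genes no genotype stood apart (26.2%, against 23.6%).

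Genes with and without the promoter E-box are set side by side next, to be read against 30.7% of all genes higher and 32.1% lower in CK, and 26.6% and 24.6% in KO. Of the 14 genes with the motif 6 rose and 4 fell in CK against WT, and of 21 tested genes with a window but no motif 7 rose and 5 fell. In KO the counts were 0 and 4 with the motif and 1 and 7 without. The median differences in CK were 0.11 and 0.12, and no test was made between these groups, so whether they differ is not answered here.

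Other genes of the pathway were read in the same way, and their lists did not all lean in the direction of the main set. Their lists were written from general knowledge of the pathway, apart from the 43 genes, but with earlier results of these data known. Their counts are therefore a description. They stand beside 30.7% of all genes higher and 32.1% lower in CK against WT, and 26.6% and 24.6% in KO. Of 45 tested hydrolases and cofactors outside the main set, 8 rose and 20 fell in CK against WT (17.8% and 44.4%, median -0.09), and 12 rose and 14 fell in KO (26.7% and 31.1%, median -0.01). The log2 level (mean ± SD, n = 3) of Hpse, the heparanase, was 12.82 ± 0.12 on WT arrays, 7.45 ± 0.26 on CK arrays and 8.77 ± 0.23 on KO arrays. Smpdl3a, a phosphodiesterase related to Smpd1, read 12.29 ± 0.16, 7.88 ± 0.05 and 9.79 ± 0.29. Both were far lower in both mutants and lowest in CK, by 41.4-fold and 21.2-fold against WT as measured, although 1 CK array of Hpse (7.14) lay below the filter level and its CK values may be background. Ids, an iduronate sulfatase of the same glycan pathway as Sgsh and Naglu, rose by 1.04 in KO and fell by 0.54 in CK. The cysteine protease Ctso fell by 1.21 in CK, while the legumain gene Lgmn was higher in CK than in KO by 1.18. The list also counts genes whose products are not lysosomal, among them Gba2, which was lower in CK than in KO by 1.27.

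Of 16 other proton pump subunits tested, 9 rose and 2 fell in CK against WT (56.2% and 12.5%, beside 30.7% and 32.1% of all genes, median 0.28). In KO 7 rose and 3 fell (43.8% and 18.8%, beside 26.6% and 24.6%, median 0.10). Between CK and KO 8 were higher and 1 lower (50% and 6.25%, beside 29.5% and 32.7%). Atp6v0d2, which passed the filter only because of its CK arrays, is counted among the called genes in each comparison. Atp6v0e2, a small membrane subunit, rose by 1.69 in CK, the accessory subunit Atp6ap2 by 0.97 and Atp6v0b by 0.96 in CK and 0.56 in KO. Atp6v0a1 went the other way, with differences of -0.85 in CK and -0.72 in KO.

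Among 42 other membrane and transport proteins, 16 rose and 12 fell in CK against WT (38.1% and 28.6%, beside 30.7% and 32.1% of all genes) and 9 rose and 13 fell in KO (21.4% and 31.0%, beside 26.6% and 24.6%). The tetraspanin Cd82 had the largest KO fall (log2 difference -1.52), the chloride-proton exchanger Clcn6 fell by 0.89 there, and Cd151 rose in both mutants, by 0.90 in CK and 0.73 in KO. Of 28 genes that deliver enzymes to lysosomes, 10 rose and 5 fell in CK (35.7% and 17.9%) and 10 rose and 3 fell in KO (35.7% and 10.7%). The sorting receptor Sort1 rose from 7.52 ± 0.28 in WT to 10.07 ± 0.21 in CK and 9.56 ± 0.02 in KO (mean log2 ± SD of 3 arrays), with 1 WT array (7.19) below the filter level. Its relative Sorl1 rose by 1.88 in KO alone, with a CK difference of 0.15 that did not pass and a difference between the mutants that did (-1.72, limma adjusted p = 1.41e-06). Igf2r, the mannose 6-phosphate receptor that carries new hydrolases to lysosomes, rose by 0.98 in CK and 0.84 in KO.

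The regulators of the pathway changed gene by gene. Of 36 relatives of TFEB and genes of mTORC1 control at the lysosome, 10 rose and 9 fell in CK against WT (27.8% and 25%, beside 30.7% and 32.1% of all genes) and 9 rose and 9 fell in KO (25% each, beside 26.6% and 24.6%). Rragd, a Rag GTPase that recruits mTORC1 to lysosomes and is itself switched on by TFEB and its relatives, read 6.29, 6.41 and 6.40 in WT, 9.25, 9.46 and 9.12 in CK, and 6.74, 6.74 and 6.52 in KO. Only the CK arrays lay above the filter level, and the gene passed the filter through them alone, so these values are given as a description. Rragd is nevertheless among the genes counted above as risen in CK and in KO. Its KO call rests on WT and KO values that may be background. Mitf, a relative of TFEB, fell by 0.92 in CK and by 1.62 in KO. Castor1, an arginine sensor, fell in both mutants, Sesn2, a leucine sensor induced by stress, was higher in CK than in KO by 1.44, and Sesn3 rose by 0.70 in KO. Lamtor1, whose product p27 is reported to bind, was looked up outside the naming rule after values were seen. It read 10.27 to 10.70 on the WT arrays, 10.41 to 10.50 in CK and 10.39 to 10.54 in KO, and did not pass the test in either mutant (adjusted p = 0.653 and 0.762). Tfe3, the other close relative of TFEB, was looked up after the values were seen and was higher in CK than in WT by 0.37 (adjusted p = 6.67e-05), opposite to Tfeb and Mitf.

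Of 41 other core autophagy genes, 16 rose and 8 fell in CK against WT (39.0% and 19.5%, beside 30.7% and 32.1% of all genes), and 13 rose and 8 fell in KO (31.7% and 19.5%, beside 26.6% and 24.6%). Wipi2, the relative of Wipi1 that recruits the conjugation machinery, rose by 0.83 in CK, while Ulk2 and the lipid scramblase gene Atg9a fell there by 0.79 and 0.65. Dram1, a p53 target of the lysosomal membrane, and Bcl2, which restrains Becn1, fell in KO by 1.56 and 1.89. Of 17 other cargo receptors, 5 rose and 5 fell in CK (29.4% each) and 7 rose and 1 fell in KO (41.2% and 5.88%). Retreg1, the receptor for endoplasmic reticulum, rose by 1.37 in CK and 0.75 in KO, Hdac6 rose by 1.17 in CK, and the mitochondrial receptor Bnip3 rose there by 0.62.

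**Figure D5:**
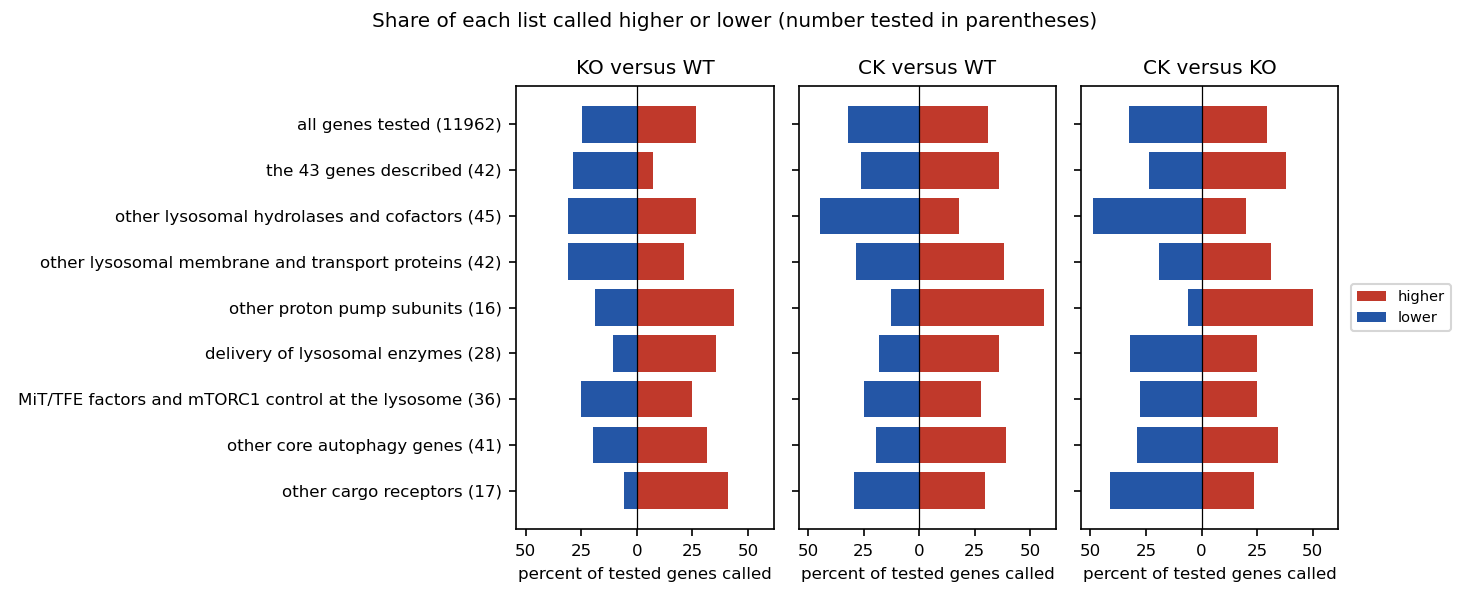
Percent of the tested genes of each list that were called higher (red, to the right) or lower (blue, to the left) in the 3 comparisons, with the number tested beside each list name and all genes tested in the top row. In CK against WT, other proton pump subunits have 9 genes higher and 2 lower of 16, and other hydrolases 8 higher and 20 lower of 45.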

How the data were processed

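The deposited table holds 34760 probe sets on 9 one-colour Affymetrix arrays, whose values the authors computed by RMA in affy, per the submitters' processing notes, with no version given there. As deposited, each value is a score of 10 to 15 digits with no decimal mark. The mark was restored after 2 digits where a string starts with 1 and after 1 digit otherwise, which gives values from 4.28 to 14.44, taken as log2 because RMA gives log2. RMA equalises the arrays' distributions, so a change in total RNA cannot be seen, and there are no detection calls. Platform annotation gave 21640 probe sets with 1 symbol, 1321 with several (not named) and 11799 with none. RefSeq (GRCm38.p6) supplied neighbours and promoters. RefSeq gene models of 11 of the 43 genes overlap another protein-coding gene.

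The 11962 genes at or above the filter were fitted in limma 3.58.1 (R 4.3.3), with 1 coefficient per genotype over 9 arrays, 6 residual and 4.10 prior degrees of freedom and Benjamini-Hochberg adjustment over all of them. The fit was tested on simulated data. Precision is limited by how few arrays each genotype has, and an exact permutation test of 3 arrays against 3 cannot go below 0.1. The genes, lists and tests were chosen with earlier results of these data known. All 43 genes are reported. Array values are given for Tfeb, Sqstm1, Map1lc3b, Lamp1, Ctsd and, in each comparison, up to 5 called rises and 5 called falls without overlap; of other lists, up to 3 called genes per comparison with the smallest p were eligible, and Lamtor1, Tfe3 and the marker genes of other cell types are extra. Arrays with the same replicate number deviated together in some pairs only, so no pairing was assumed.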

Additional observations from a re-analysis of the deposited data

How the results depend on the processing

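Of 67 called differences over the 3 comparisons, 61 held in all 9 processing alternatives, 53 held without any 1 array, and 0 reversed. Over all 19 settings, which include an adjusted p limit of 0.01, 49 held and 18 were lost in 1 or more. Of 59 differences not called, 21 passed in 1 or more settings. The adjusted p limit of 0.01 changed 1 count by over 1.5 times: genes higher in CK than WT went from 15 to 9. Genes higher in KO than WT went from 3 to 5 with arrays centred, with quantile normalization repeated and with a trended robust variance, and to 9 with array weights. Leaving out 1 array gave 2 to 6 genes higher and 10 to 13 lower in KO than WT, 11 to 15 and 10 to 12 in CK against WT, and 12 to 17 and 9 to 11 in CK against KO. The causes were not tested. With the replicate number as a block, 3 genes were higher and 10 lower in KO than WT, 15 and 10 in CK than WT, and 16 and 10 in CK than KO. Correlations of same-numbered arrays' deviations ran from -0.30 (CK and KO replicate 2) to 0.36 (WT and KO replicate 3). With so few arrays they do not settle whether the numbers pair the samples, and no pairing was assumed. Values near or below 7.24 may be background. This limits the sizes given for Ctsk, Ch25h and Atp6v0d2 in KO, Hpse in CK, Lyz2 and Sort1 in WT, and Rragd in WT and KO.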

Other observations

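Neighbouring genes of the 6 genes with the largest differences were looked up after those values were seen. Mpdu1, next to Cd68 on chromosome 11, also fell in both mutants, from a mean log2 level of 11.19 on WT arrays to 10.01 with p27CK and 10.19 without p27 (limma adjusted p = 1.27e-06 and 6.12e-06), while Eif4a1 on the other side differed by -0.06 and -0.05 and did not pass. Ch25h, a cholesterol hydroxylase gene next to Lipa on chromosome 19, had a mean log2 level of 9.34 on WT arrays, 9.12 on CK arrays and 6.59 on KO arrays, so it was lower with Lipa in KO, where it lay below the filter level and may be background, and its CK difference of -0.22 did not pass (adjusted p = 0.168). Ifit2, on the other side of Lipa, rose in KO by 0.40 (adjusted p = 0.000515) and in CK by 0.53. Eif3c, next to Cln3 on chromosome 7, rose in CK by 0.70 where Cln3 fell, and Apobr, whose RefSeq model overlaps that of Cln3, rose there by 0.38. Arnt, next to Ctsk on chromosome 3, did not pass in any comparison, and Ctss on its other side was not tested. The neighbours of Gla on the X chromosome rose in both mutants, Rpl36a by 0.49 in KO and 0.36 in CK and Hnrnph2 by 0.24 and 0.37, where Gla fell in KO and rose in CK. Beside Ctsh on chromosome 9, Morf4l1 rose in CK by 0.27 and did not pass in KO, and Rasgrf1, below the filter and not tested, had mean log2 levels of 8.25 on WT arrays, 6.41 on CK arrays and 6.40 on KO arrays.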
